A study of Rattus norvegicus with 6 samples.

Results

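The genes described here encode the complement system, with the proteins that start it, carry it out, restrain it and sense its products. They were named in a list of 34 genes, of which 28 had a probe set of their own among the 18166 named genes tested. Expression was compared between 2 cell fractions of the epididymis, where sperm mature, in Sprague-Dawley rats of 48 days. The basal fraction was enriched by a magnetic method for basal cells, which lie on the basement membrane of the duct, and the non-basal fraction held the other cells. There were 3 arrays per fraction (Affymetrix RaGene 2.0 ST), with log2 values per probe set, and this number limits the precision. The labels name 3 rats, no treatment and no animal for any array, so the replicate spread behind the p-values may be technical.

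Each gene was to be represented by the probe set with the highest mean over the 6 arrays, but none of the 28 measured genes had more than 1 probe set, so this choice decided nothing. C4a and C4b shared a probe set that carries both symbols and have no value here. C2, Cfi, C5ar1 and C5ar2 were not analysed here. Cd59 was found under its current symbol Cd59b. Of the 28 measured genes 22 encode soluble proteins and 6 encode membrane proteins.

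Complement is a cascade of plasma and tissue proteins that marks and lyses cells and calls in leukocytes. The classical pathway begins when C1q binds an antibody or a surface and its partner proteases C1r and C1s become active, and the lectin pathway begins with collectins and the Masp proteases. Both lead to the cleavage of C3, which the alternative pathway of Cfb, Cfd and Cfp amplifies, and the terminal proteins C5 to C9 then form a pore in the membrane. Membrane proteins such as Cd55, Cd46 and Cd59 protect host cells, and in the male tract they are known for their presence on sperm. The liver makes most of the circulating proteins, while fibroblasts are known to make C1r and C1s and macrophages to make C1q.

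The labels were set beside markers of the cell types. The lists were chosen with earlier results of these data known, so this was not an independent check. Calls used a limma adjusted p under 0.05, by which 7.14% of all genes were lower and 7.71% higher. All 10 markers of basal epithelium, among them Tp63 and Krt14, were higher in the basal fraction, with a mean log2 level of 10.15 to 10.51 in basal arrays and 7.26 to 8.08 in non-basal arrays. All 10 fibroblast markers were lower, with a mean level of 6.91 to 8.93 in basal arrays and 11.21 to 12.26 in non-basal arrays. Among 9 endothelial markers 8 were lower, among 9 smooth muscle markers 7, among 9 lymphocyte markers 5, and among 12 macrophage markers 2. Of 9 principal cell markers 1 was lower (Spag11a) and 8 did not pass, with a mean level of 10.13 to 11.39 in basal arrays and 11.18 to 11.36 in non-basal arrays. Of 8 clear cell markers 1 was higher (Car12) and 7 did not pass, with a mean level of 8.93 to 9.35 in basal arrays and 9.03 to 9.61 in non-basal arrays. Of 8 mesothelial markers 1 was higher (Krt19), and of 8 neutrophil markers 0 were called. These fractions are mixtures, so fewer cells of a type and less RNA per cell cannot be told apart. Within the basal fraction replicate 3 stood apart with the highest fibroblast, smooth muscle, endothelial, lymphocyte, principal cell and clear cell levels. It had the lowest basal epithelial level, and its macrophage level lay between those of replicates 1 and 2. Within the non-basal fraction replicate 1 stood apart with the lowest macrophage, fibroblast, smooth muscle, lymphocyte and basal epithelial levels. Its endothelial, principal cell and clear cell levels were the highest of that fraction. The median array value lay between 6.63 and 6.70 in all 6 arrays.

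In the basal fraction 9 of the 28 complement genes were lower than in the non-basal fraction, 0 were higher and 19 did not pass the test (limma, Benjamini-Hochberg adjusted p under 0.05 over all genes). Over all 18166 genes 7.14% were called lower and 7.71% higher, together 14.9%. The 9 genes were the C1 proteases C1r and C1s, the alternative pathway factor Cfb, the terminal components C5 and C7, the soluble regulator Vtn, the membrane regulators Cd55 and Cd59, and the scavenger receptor Colec12. At least 2-fold lower were 7 of the 28, against 3.55% of all genes. The median log2 difference, basal minus non-basal, was -0.28 over the 28 genes and 0.00343 over all genes. In 11 of the 28 genes all 3 basal values lay below all 3 non-basal values, a pattern of 15.3% of all genes, and C3 alone had all basal values above, against 17.6% of all genes. In either direction 32.9% of all genes did not overlap between the fractions. An unadjusted p under 0.05 was found for 11 of the 28, against 30% of all genes, and among the 11 C3 alone had a positive difference.

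Among the 22 soluble proteins 6 genes were lower and the other 16 were not called. Their 22 differences had a median of -0.22 and ran from -4.48 to 0.87, with 5 above 0. Among the 6 membrane proteins 3 were lower and the other 3 were not called. The 6 differences had a median of -0.70 and ran from -2.23 to 0.02, with 1 above 0. Both counts stand beside 7.14% of all genes called lower. The difference between the soluble and the membrane genes was not tested. The mean level of the soluble genes was 6.84, 6.98 and 7.13 in basal replicates 1 to 3, against 7.36, 7.83 and 7.82 in non-basal replicates 1 to 3. That of the membrane genes was 7.32, 7.42 and 7.37 in the basal arrays, against 8.05, 8.52 and 8.46 in the non-basal arrays. In both classes every basal mean lay below every non-basal mean. These means include the genes called lower. The share of 15.3% of all genes with this pattern counts single genes and is no measure for means of several genes.

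**Figure D1:**
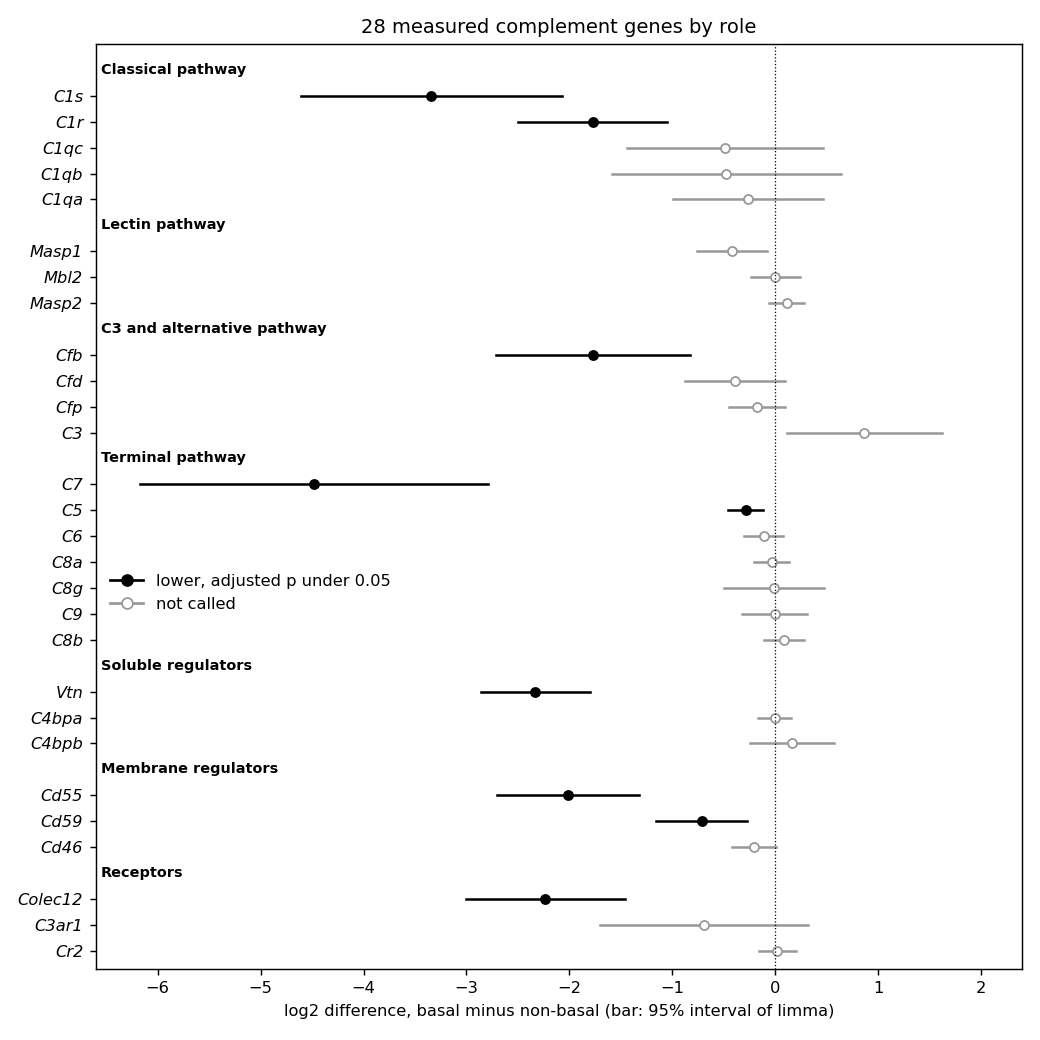
Log2 difference, basal minus non-basal (horizontal axis), of the 28 measured complement genes, grouped by role, with the 95% interval of limma as a bar. Filled black points are the 9 genes called lower, which reach from -0.29 for C5 to -4.48 for C7, and open grey points are the 19 that did not pass, with C3 the highest at 0.87.

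The proteases of the C1 complex were lower in the basal fraction, whereas the 3 chains of its recognition part, C1q, did not pass. C1s, the protease that cleaves C4 and C2, had log2 values of 6.94, 7.26 and 8.60 in basal replicates 1 to 3, against 10.19, 11.38 and 11.26 in non-basal replicates 1 to 3. Its groups were far apart, with basal replicate 3 the highest basal array and non-basal replicate 1 the lowest non-basal one. The difference was -3.34 ± 0.518 (SE), or 10.2-fold lower, at an adjusted p of 0.0107 in limma. C1r, which activates C1s, had values of 9.78, 9.84 and 10.25 in the basal arrays, against 11.09, 12.15 and 11.96 in the non-basal arrays. It was 3.42-fold lower, at -1.78 ± 0.296 with a limma adjusted p of 0.0135, and the same 2 arrays stood nearest to the other fraction. The 2 genes are direct neighbours in the RefSeq gene table of the assembly GRCr8, and C1rl, the C1r-like gene on the other side of C1r, had a difference of -0.19 (limma adjusted p = 0.442). The C1r call was lost without basal replicate 1 or 2 or non-basal replicate 2 or 3 (adjusted p of 0.0683, 0.0734, 0.0536 and 0.0738), and the C1s call when basal replicate 2 or one of non-basal replicates 2 and 3 was left out (0.0627, 0.0544 and 0.0645).

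C1q is built from the chains of C1qa, C1qb and C1qc, whose genes lie beside each other with 0 or 1 coding genes between them in the same table. For C1qa the values were 8.10, 8.49 and 8.15 in basal replicates 1 to 3, against 7.83, 8.90 and 8.80 in non-basal replicates 1 to 3. C1qb had 8.31, 8.82 and 7.84 in the basal arrays, against 7.86, 9.41 and 9.13 in the non-basal arrays. C1qc had 7.68, 8.16 and 7.60 in the basal arrays, against 7.42, 8.68 and 8.80 in the non-basal arrays. In all 3 genes non-basal replicate 1 lay among or below the basal arrays and the other 2 non-basal arrays lay above them. The differences were -0.27, -0.48 and -0.49, with adjusted p of 0.593, 0.524 and 0.446 in limma and 95% intervals of -0.999 to 0.466, -1.59 to 0.64 and -1.44 to 0.46.

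The C1q chains were set beside the mean level of 12 macrophage markers, which was 7.97, 8.35 and 8.02 in basal replicates 1 to 3, against 8.16, 9.16 and 9.07 in non-basal replicates 1 to 3, so that non-basal replicate 1 lay 0.957 below the mean of the other 2. None of the 3 chains placed all 6 arrays in the order of this mean, in which non-basal replicate 1 lay above basal replicates 1 and 3. In C1qa, C1qb and C1qc non-basal replicate 1 lay 1.02, 1.41 and 1.32 below the mean of the other 2 non-basal arrays. Of the 12 markers 2 were lower in the basal fraction, Laptm5 and Ctss, and 10 did not pass. Without non-basal replicate 1, C1qa and C1qc were lower at limma adjusted p of 0.0485 and 0.0365, whereas C1qb stayed at 0.113. The part of macrophage RNA in these values was not tested.

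**Figure D2:**
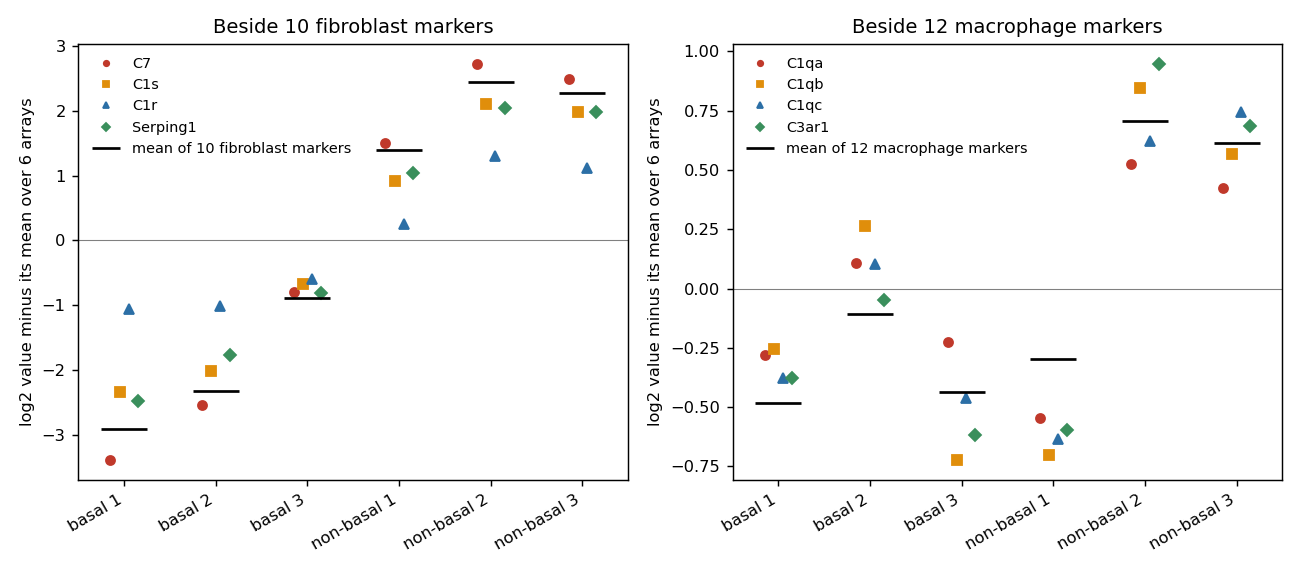
Log2 value minus its mean over the 6 arrays (vertical axis) for each array (horizontal axis), for C7, C1s, C1r and Serping1 beside the mean of 10 fibroblast markers on the left, and for C1qa, C1qb, C1qc and C3ar1 beside the mean of 12 macrophage markers on the right. On the left every basal array lies below every non-basal array, and on the right non-basal replicate 1 lies among or below the basal arrays.

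The lectin pathway genes did not pass the test. Masp1, which encodes proteases that act with the collectins, had values of 6.24, 6.27 and 6.02 in the basal arrays, against 6.33, 6.80 and 6.65 in the non-basal arrays. Its fractions did not overlap, and the difference was -0.42 ± 0.14 (limma adjusted p = 0.106). Without non-basal replicate 1 Masp1 was lower, at a limma adjusted p of 0.031. Masp2, the protease that cleaves C4 and C2, and Mbl2, a mannose-binding lectin, had differences of 0.11 and 0.00087 (adjusted p of 0.334 and 0.999), and the 3 lectin genes had a median difference of 0.00087.

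Of C3 and the 3 factors of the alternative pathway, Cfb was lower and the others did not pass. C3, on which all pathways converge, was the only measured member with all basal values above all non-basal values. It had 9.45, 10.30 and 9.88 in basal replicates 1 to 3, against 8.46, 9.21 and 9.37 in non-basal replicates 1 to 3. The lowest basal and the highest non-basal value were close together, and the difference of 0.87 ± 0.308 did not pass (limma adjusted p = 0.124, 95% interval 0.11 to 1.62). Cfb, the factor that joins C3b to make the C3 convertase of the alternative pathway, was 3.41-fold lower, at -1.77 ± 0.387 (limma adjusted p = 0.0321). Its values were 6.91, 7.44 and 8.07 in the basal arrays, against 8.62, 9.74 and 9.37 in the non-basal arrays, with basal replicate 3 and non-basal replicate 1 next to each other. The Cfb call was lost without basal replicate 1 or 2 or non-basal replicate 2 or 3 (adjusted p of 0.105, 0.125, 0.106 and 0.13).

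Cfd, the protease that cleaves factor B and is known from fat cells as adipsin, had 6.93, 6.82 and 6.94 in the basal arrays, against 6.90, 7.70 and 7.27 in the non-basal arrays. The fractions overlapped through non-basal replicate 1, and the difference of -0.39 ± 0.199 did not pass (limma adjusted p = 0.249). Of 8 adipocyte markers 2 were lower, Lpl and Pck1, with differences of -2.05 and -0.83. None was higher and 6 did not pass, namely Fabp4 (-0.62), Adipoq (-0.14), Retn (-0.07), Plin1 (-0.05), Cidec (-0.02) and Lep (0.36). The mean level of the 8 markers was 6.10 to 6.17 in basal arrays and 6.35 to 6.68 in non-basal arrays. The gap between these levels came mainly from Lpl, Pck1 and Fabp4. The part of adipocyte RNA in the Cfd values was not tested. Cfp, properdin, which stabilises that convertase, had a difference of -0.18 ± 0.112 (adjusted p = 0.342), and it was lower without non-basal replicate 1 (limma adjusted p = 0.0365).

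Of the 7 terminal pathway genes 2 were lower and 5 did not pass. C7, which anchors the growing complex in the membrane, had the lowest difference of the 28 genes, at -4.48 ± 0.692 (limma adjusted p = 0.0106). Its values were 6.88, 7.73 and 9.46 in basal replicates 1 to 3, against 11.77, 12.99 and 12.75 in non-basal replicates 1 to 3. The spread within the basal fraction was wide, with an SD of 1.32 (n = 3) against 0.645 in the non-basal fraction, and replicate 3 was the highest basal array. The call was lost when basal replicate 2 (adjusted p = 0.0627), non-basal replicate 2 (0.0549) or non-basal replicate 3 (0.0642) was left out. C6, which precedes C7 in the complex and lies 1 coding gene away in the RefSeq table, had a difference of -0.11 ± 0.0778 (limma adjusted p = 0.387), with values of 4.75 to 4.94 in basal arrays and 4.91 to 5.02 in non-basal arrays.

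C5, whose fragments attract leukocytes and start the pore, was lower by a small amount. The values were 5.42, 5.45 and 5.32 in the basal arrays, against 5.71, 5.72 and 5.62 in the non-basal arrays, so that the fractions did not overlap and spread by SDs of 0.0679 and 0.0591. The difference was -0.29 ± 0.069, or 1.22-fold lower (limma adjusted p = 0.0423). This call was lost in each of the 6 fits without 1 array (adjusted p of 0.0602 to 0.13) and after centring of the arrays on their medians (0.0699). The pore subunit genes C8a, C8b, C8g and C9 had differences between -0.04 and 0.08, and their fractions overlapped. C8a lay at 5.76 to 5.93, C8b at 5.41 to 5.68, C9 at 4.68 to 5.18 and C8g at 8.37 to 9.16. All but C8g lay under the median array value of 6.63 to 6.70, as did C5. Without a detection limit, a small difference at such levels does not show that a gene was expressed in either fraction.

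In 4 of the 28 genes at least 3 arrays held the same value to all deposited digits, namely C9 at 4.92 in 3 arrays and C4bpb at 4.44, C4bpa at 6.23 and Cr2 at 4.74 in 4 arrays each. Such repeats were found in 14.3% of the 36685 probe sets. In these genes the fitted difference rests on the arrays that deviate, and none of the 4 passed the test. Of the 19 genes that did not pass, 14 had a range under 1 log2 unit over all 6 arrays.

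Among the soluble regulators Vtn was lower and C4bpa and C4bpb did not pass. Vtn encodes vitronectin, an adhesive protein that keeps the terminal complex from entering membranes. It had values of 6.43, 6.20 and 6.9997 in basal replicates 1 to 3, against 8.69, 9.05 and 8.88 in non-basal replicates 1 to 3. The fractions lay more than 1 log2 unit apart, and the difference was -2.33 ± 0.218, or 5.03-fold lower (limma adjusted p = 0.00285). Of the 9 calls it was the one that held in all 6 fits without 1 array, with adjusted p of 0.00167 to 0.0272. C4bpa and C4bpb, the chains of the inhibitor that binds C4b, had differences of -0.00650 and 0.16 (adjusted p of 0.96 and 0.564).

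Membrane regulators were lower as well in 2 of 3 genes. Cd55, decay-accelerating factor, which takes C3 convertases apart, had 8.53, 8.64 and 8.39 in basal replicates 1 to 3, against 9.88, 10.97 and 10.75 in non-basal replicates 1 to 3. The basal arrays lay close together, with an SD of 0.126 (n = 3) against 0.576 in the non-basal arrays, and replicate 3 was the lowest of them. The difference was -2.02 ± 0.283, or 4.05-fold lower (limma adjusted p = 0.00775), a call that was lost without non-basal replicate 3 (0.0507). In the RefSeq table Cd55 lies 1 coding gene away from C4bpa, for which the fractions overlapped.

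Cd59, which stops C9 from closing the pore, had values of 9.77, 10.10 and 10.03 in the basal arrays, against 11.03, 10.39 and 10.62 in the non-basal arrays. Here non-basal replicate 1 was the highest array, whereas in 18 of the 28 genes it was the lowest non-basal one, a share not counted over all genes. The difference was -0.71 ± 0.18, or 1.64-fold lower (limma adjusted p = 0.0497), and the call was lost in each of the 6 fits without 1 array (0.0559 to 0.162). Cd46, the cofactor for cleavage of C3b, which in mouse and rat is known mainly from sperm, had 6.36, 6.57 and 6.56 in the basal arrays, against 6.79, 6.70 and 6.61 in the non-basal arrays. Its fractions did not overlap, but the difference of -0.21 ± 0.0881 did not pass (limma adjusted p = 0.182).

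Of the receptors Colec12, C3ar1 and Cr2, the first was lower. Colec12, a membrane collectin that takes up modified lipoproteins and microbes, had 7.66, 7.18 and 7.96 in basal replicates 1 to 3, against 9.21, 10.16 and 10.12 in non-basal replicates 1 to 3. The difference was -2.23 ± 0.317, or 4.70-fold lower (limma adjusted p = 0.00801), and the call was lost without non-basal replicate 3 (0.0507). C3ar1, the receptor for the C3a fragment, which is found on macrophages, had 6.85, 7.18 and 6.62 in the basal arrays, against 6.64, 8.18 and 7.92 in the non-basal arrays. As in the C1q chains, non-basal replicate 1 lay with the basal arrays, and the difference of -0.69 ± 0.414 did not pass (limma adjusted p = 0.319), while it did without that array (-1.16, adjusted p = 0.0204). Cr2, the complement receptor of B cells, had a difference of 0.02 (adjusted p = 0.888), and the B cell markers Cd79a and Ms4a1 had differences of -0.08 and 0.14.

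**Figure D3:**
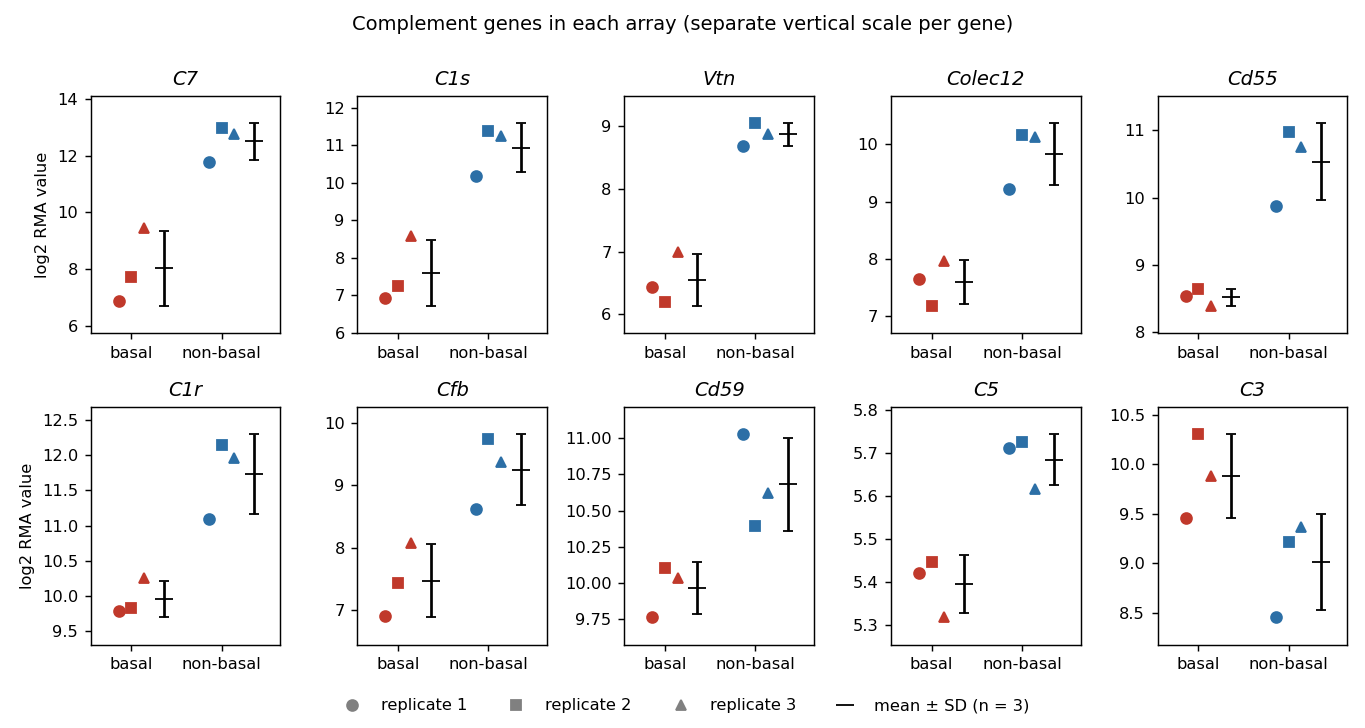
Log2 RMA value (vertical axis, a separate scale for each gene) in the 3 basal and the 3 non-basal arrays for the 9 genes called lower and for C3, with the replicate number as the marker and the mean ± SD (n = 3) in black. In the 9 genes the fractions do not overlap, and in C3 the order is turned round, with basal values of 9.45 to 10.30 and non-basal values of 8.46 to 9.37.

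The order of the arrays was compared with that of fibroblast markers. The mean level of the 10 fibroblast markers was 6.91, 7.49 and 8.93 in basal replicates 1 to 3, against 11.21, 12.26 and 12.09 in non-basal replicates 1 to 3. C1r, C1s, Cfb and C7 placed the 6 arrays in exactly this order, 4 of the 9 genes called lower and 14.3% of the 28 measured. Over all genes 2.09% had this order, and over all genes called lower 23.6%. The order is not particular to fibroblast markers, since the mean level of 9 smooth muscle markers had it too. That mean was 8.53, 8.58 and 9.15 in the basal arrays, against 10.53, 10.65 and 10.59 in the non-basal arrays. Vtn, C5, Cd55, Cd59 and Colec12 placed the arrays differently within a fraction. In 6 of the 9 genes called lower basal replicate 3 was the highest basal array, and in 7 non-basal replicate 1 was the lowest non-basal one. The shares of all genes with these traits were not counted. The part of fibroblast or smooth muscle RNA in these differences was not tested.

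The sequence before the transcription start is shown for the genes at least 2-fold lower that have a window in RefSeq (C1r, Vtn, Cd55 and Colec12) and for C3, whose basal values lay above. Each window reaches from 250 bases before to 50 bases after the start, on the strand of the gene, in build GRCr8: C1r at chr4:159098763-159099062 (plus strand), Vtn at chr10:63892532-63892831 (plus), Cd55 at chr13:44438052-44438351 (minus), Colec12 at chr18:1005537-1005836 (plus) and C3 at chr9:2201290-2201589 (minus). Capitals mark matches, on either strand, to the motifs listed after the sequences.
C1r: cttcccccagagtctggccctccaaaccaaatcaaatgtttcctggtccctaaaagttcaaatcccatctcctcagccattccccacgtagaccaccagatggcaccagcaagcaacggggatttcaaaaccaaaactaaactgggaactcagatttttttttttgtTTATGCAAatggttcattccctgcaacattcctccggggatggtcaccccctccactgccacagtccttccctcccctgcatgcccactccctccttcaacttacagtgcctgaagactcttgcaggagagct
Vtn: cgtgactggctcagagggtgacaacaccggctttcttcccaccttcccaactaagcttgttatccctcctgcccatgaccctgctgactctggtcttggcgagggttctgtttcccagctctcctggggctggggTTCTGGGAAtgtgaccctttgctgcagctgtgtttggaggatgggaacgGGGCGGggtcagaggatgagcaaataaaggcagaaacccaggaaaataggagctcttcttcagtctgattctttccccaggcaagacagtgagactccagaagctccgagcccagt
Cd55: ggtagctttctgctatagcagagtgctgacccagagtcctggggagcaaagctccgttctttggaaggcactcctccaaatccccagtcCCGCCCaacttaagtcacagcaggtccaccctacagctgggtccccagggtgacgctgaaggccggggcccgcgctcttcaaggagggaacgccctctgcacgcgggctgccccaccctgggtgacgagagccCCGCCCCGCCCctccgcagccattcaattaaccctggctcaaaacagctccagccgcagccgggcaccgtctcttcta
Colec12: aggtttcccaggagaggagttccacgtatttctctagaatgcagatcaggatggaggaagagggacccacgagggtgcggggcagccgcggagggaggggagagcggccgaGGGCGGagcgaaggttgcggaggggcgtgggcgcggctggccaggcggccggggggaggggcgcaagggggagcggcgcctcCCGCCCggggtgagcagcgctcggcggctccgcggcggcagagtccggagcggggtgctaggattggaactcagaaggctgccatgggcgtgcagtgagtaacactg
C3: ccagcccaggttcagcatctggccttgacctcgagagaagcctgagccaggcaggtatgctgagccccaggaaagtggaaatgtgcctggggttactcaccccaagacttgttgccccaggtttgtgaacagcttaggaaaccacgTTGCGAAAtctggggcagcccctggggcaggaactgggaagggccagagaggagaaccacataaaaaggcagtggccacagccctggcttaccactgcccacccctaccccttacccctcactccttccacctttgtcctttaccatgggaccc
The motifs searched were GGGCGG (resembling Sp1 sites), TTGCNNAA (C/EBP), TTCNNNGAA (STAT), TATAAA (the TATA box), TTTCNNTTT (interferon regulatory factors) and GGNNTTTCC (NF-kB). GGGCGG was found in Vtn, Cd55 and Colec12, with 3 matches in Cd55, of which 2 overlap, and in 33.1% of the 33469 windows of the table. TTGCNNAA was found in C1r, 83 bases before the start, and in C3, 104 bases before it, and in 10.6% of all windows. TTCNNNGAA was found in Vtn, 115 bases before the start, and in 8.87% of all windows. The other 3 motifs had no match in these 5 windows, against 14.2%, 11.8% and 6.05% of all windows. No motif was found in all 4 of the lower genes shown. C1s, Cfb and C7 were also at least 2-fold lower but had no window, so they were not searched.

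Other genes of the system were taken from a list of 23 further components and receptors, of which 21 were measured. In the basal fraction 3 were lower, 0 were higher and 18 were not called, against 7.14% of all genes lower and 7.71% higher. The median difference of the 21 was -0.09. An unadjusted p under 0.05 was found for 4 of the 21, all with negative differences, against 30% of all genes in either direction and 13.9% with a negative difference. Serping1, the C1 inhibitor that blocks C1r and C1s, had 7.13, 7.84 and 8.80 in basal replicates 1 to 3, against 10.64, 11.66 and 11.59 in non-basal replicates 1 to 3. It was 10.4-fold lower, at -3.37 ± 0.48 (limma adjusted p = 0.00809). Serping1 placed the 6 arrays in the order shared by the fibroblast and smooth muscle marker means. The call was lost when basal replicate 2 (0.0515) or non-basal replicate 3 (0.0536) was left out.

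Thbd, thrombomodulin, which promotes the inactivation of C3b, and Cd93, a receptor once described for C1q, are both known from endothelium and are direct neighbours in the RefSeq table. Thbd had 6.23, 5.84 and 6.49 in the basal arrays, against 7.91, 8.94 and 9.01 in the non-basal arrays, a difference of -2.43 ± 0.333 (limma adjusted p = 0.00727). Cd93 had 7.39, 7.51 and 8.02 in the basal arrays, against 9.55, 9.38 and 9.68 in the non-basal arrays, a difference of -1.90 ± 0.182 (limma adjusted p = 0.00296). Both calls held in all 6 fits without 1 array. The mean level of 9 endothelial markers was 6.91 to 7.33 in basal arrays and 8.50 to 8.67 in non-basal arrays, and its part in these values was not tested.

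Clu and Cr1l were chosen after their values were seen. Clu, clusterin, an inhibitor of the terminal complex and an abundant product of the epididymal epithelium, had 13.51, 13.46 and 13.58 in the basal arrays, against 13.86, 13.73 and 13.76 in the non-basal arrays. The fractions did not overlap, and the difference of -0.26 ± 0.0683 did not pass (limma adjusted p = 0.0537). Clu was lower without basal replicate 3 (limma adjusted p = 0.0451), without basal replicate 3 and non-basal replicate 1 together (0.0434), with a filter at a fraction mean of 5 (0.0478) and with array weights (0.0189), while the other alternatives gave 0.0535 to 0.16. Cr1l, which encodes Crry, the membrane regulator of C3 known as widely expressed in mouse and rat, had 9.76, 9.68 and 9.52 in the basal arrays, against 9.68, 9.79 and 9.72 in the non-basal arrays. Unlike those of Cd55 and Cd59 its fractions overlapped, and the difference was -0.08 ± 0.0843 (limma adjusted p = 0.575).

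**Figure D4:**
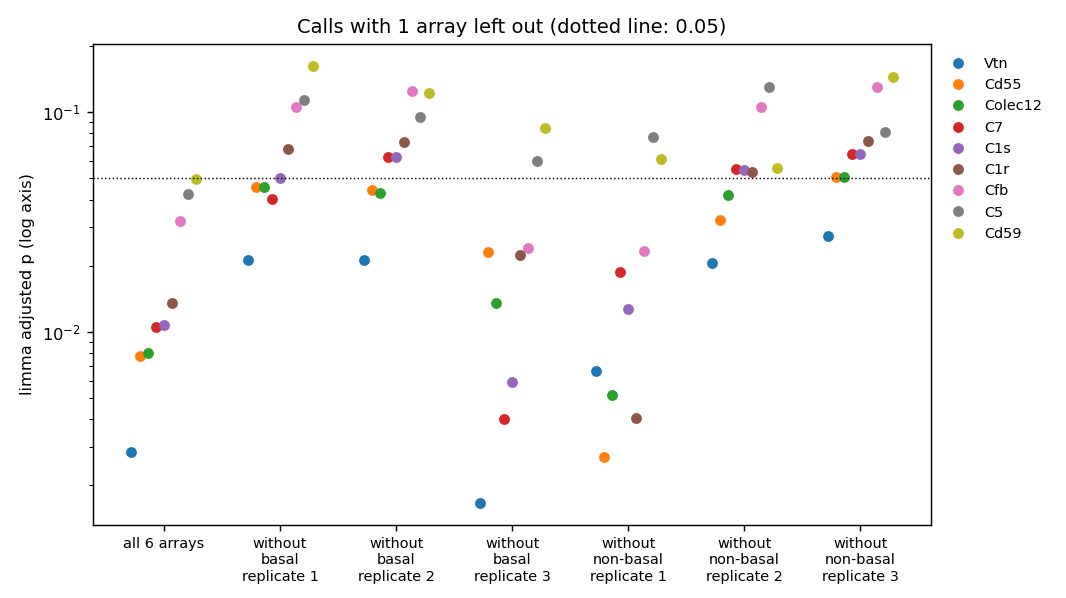
Limma adjusted p (vertical log axis) of the 9 genes called lower, with all 6 arrays and with each array left out in turn (horizontal axis), and a dotted line at 0.05. Vtn lies under the line in every fit, and C5 and Cd59 lie under it only with all 6 arrays.

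With 1 array left out, 1 to 12 of the 28 genes were lower, while 5.88% to 19.5% of all genes were called in either direction. The count was 5 when basal replicate 1 was omitted, 3 when basal replicate 2 or non-basal replicate 2 was, and 1 (Vtn) when non-basal replicate 3 was. Leaving out basal replicate 3 gave 7, and leaving out non-basal replicate 1 gave 12. Without the 2 arrays that stood apart, basal replicate 3 and non-basal replicate 1, a choice made after seeing the data, 10 genes were lower, among them C3ar1 at a limma adjusted p of 0.027, and 25.4% of all genes were called.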

How the data were processed

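Total RNA of both fractions was labelled with biotin. The deposited table holds log2 values computed by the authors with RMA (Affymetrix Expression Console), per the labels. RMA corrects background, equalises the distributions of the arrays and summarises probes into probe sets, so a shift shared by most genes is removed. Its software version and genome build are not given in the sources used here. Sample titles gave groups and replicate numbers. No array was a copy of another, the SD of the difference between 2 arrays of a fraction being at least 0.301.

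Of 36685 probe sets 18511 carried 1 gene symbol and were used, 1 per gene by the highest mean, and 575 carried several. For each of 18166 genes the log2 difference (basal minus non-basal) was tested two-sided with limma 3.58.1 (lmFit, eBayes; R 4.3.3), with neither a filter nor a block, and p-values were adjusted across all of these genes (Benjamini-Hochberg). The fit was tested on simulated data. Errors of differences are moderated standard errors. Named with their values were genes called at an adjusted p under 0.05, in role groups without a call the one with the smallest p, and of the other complement genes those called. The array values of C1qa, C1qb, C1qc, C3, Cfd, Cd46 and C3ar1 are given outside this rule, chosen after they were seen. The members, the lists of markers and of other complement genes, and the motifs were chosen with earlier results of these data known. Promoter windows came from RefSeq (GRCr8), and gene order came from its table.

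Alternatives were a replicate block, quantile normalization, median centring, a filter at a fraction mean of 5, a robust fit with an intensity trend, weights per array, averaging all probe sets of a gene, thresholds of 0.01 and 0.1, and each array left out. Whether the replicate numbers pair the arrays is not known, since the labels tie no array to an animal. The deviations of same-numbered arrays correlated at 0.0312, 0.0383 and 0.0278 across genes. Values this weak show no sign of pairing but cannot exclude it, because a shared animal may add little to the spread.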

Additional observations from a re-analysis of the deposited data

How the results depend on the processing

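Over 33 named genes 425 values were counted under the alternatives set out above, leaving out both thresholds and the joint omission of 2 arrays. Of these, 366 kept their sign and their side of the threshold, 33 lost a call, 10 gained one and 16 changed sign. The number of the 28 genes that were lower was 9, and 1 to 12 without 1 array, 3 at an adjusted p under 0.01, and 7 to 10 under the other settings at 0.05. For the soluble genes it was 6, and 1 to 9 without 1 array and 1 at 0.01, and for the membrane genes 3, and 0 to 3 without 1 array. With the replicate number as a block 1 gene was higher, C3 (adjusted p = 0.0345), and 7 were lower, the calls of C5 (0.0901) and Cd59 (0.119) being lost. Of the other complement genes 3 were lower, and 2 to 5 without 1 array, 6 with array weights and 5 with basal replicate 3 and non-basal replicate 1 left out together. Over all genes 2698 were called, and 1069 to 3543 without 1 array, 5191 with array weights, 4623 without those 2 arrays and 1047 at 0.01. The median difference of all genes was -0.0292 after quantile normalization and -0.0114 after centring.

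The values that changed sign belonged to genes near 0 that passed in no such fit. Mbl2 (0.00087) was at -0.0403 after quantile normalization, -0.0139 after centring and -0.0473 with array weights, and Cr2 (0.0186) at -0.0620 after quantile normalization. The joint omission of basal replicate 3 and non-basal replicate 1, which is not in the count above, put Mbl2 at -0.0630. With 1 array left out the differences ran from -0.0776 to 0.0939 for Mbl2, from -0.0787 to 0.00730 for C8a, from -0.242 to 0.150 for C8g, from -0.130 to 0.121 for C9, from -0.0353 to 0.0288 for C4bpa, from -0.0342 to 0.274 for C4bpb and from -0.0366 to 0.0645 for Cr2. The cause of these changes was not tested. Signal over background was not given for these arrays, so no detection limit can be set for dim genes.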
